A study of Mus musculus with 32 samples.

Results

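The 6 genes described here are COX1, COX2, COX3, CYTB, ATP6 and ATP8, the mitochondrially encoded subunits of cytochrome c oxidase, the cytochrome bc1 complex and ATP synthase. They were chosen by their gene identifiers and are 6 of the 27179 genes in the table. The study prepared RNA from mouse brain, heart, kidney and liver, pulled it down with an antibody to N6-methyladenosine (m6A, a methylated base within RNA) and sequenced it. For each organ, tissue fixed in formalin and embedded in paraffin (FFPE), as pathology archives store it, was set against flash frozen tissue. The groups used were FFPE brain, heart, kidney and liver and frozen brain, heart, kidney and liver. The labels give no strain, sex, age or treatment for the animals beyond the fixation in 10% formalin, and only the FFPE RNA passed through deparaffinization. The labels name 32 samples, 16 with the m6A antibody and 16 inputs, as 2 runs of each of 16 groups. In the table each of the 8 m6A groups has 1 column, and each organ and preservation is thus 1 library here. The sources used here do not say whether a column holds 1 run or both, or how many animals stand behind it. Input was not analysed here. A level therefore stands for how much of a transcript the pulled-down RNA held, and abundance was not separated from methylation.

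Mitochondria carry their own small circular genome, which encodes a few core subunits of the respiratory chain together with the ribosomal and transfer RNAs needed to make them. COX1, COX2 and COX3 form the catalytic core of complex IV, cytochrome c oxidase, which passes electrons to oxygen. CYTB is the cytochrome b of complex III, and ATP6 and ATP8 belong to the membrane part of complex V, the ATP synthase. All other subunits of these complexes are encoded in the nucleus and imported. Both mitochondrial strands are transcribed as long precursors that are cut apart mostly at the transfer RNAs, so neighbouring genes start out on the same RNA. Heart muscle is known for its dense mitochondria.

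Total gene counts, recovered from the deposited values, ran from 9603050 to 21523379 per library. Ribosomal RNA (Rn45s, Rn18s and the mitochondrial mt-Rnr1 and mt-Rnr2) took 50.4% to 79.7% of them, which left 3050241 to 8004550 counts. The 6 genes together made up 0.578% of the counts outside ribosomal RNA in FFPE brain (95% Wilson interval 0.571 to 0.585%), 3.46% in FFPE heart, 2.08% in FFPE kidney and 2.38% in FFPE liver. The frozen libraries gave 0.699% for brain, 3.39% for heart, 1.16% for kidney and 0.895% for liver. Heart therefore held the highest share and brain the lowest in both preservations. Each organ label matched its markers: all 10 neuron and all 8 glia markers were called higher in brain, all 11 cardiomyocyte markers in heart, all 10 nephron markers in kidney and all 10 hepatocyte markers in liver. Of all genes tested, 30.2%, 15.9%, 16.1% and 20.1% were called higher in brain, heart, kidney and liver. Some markers were also called higher elsewhere: 1 neuron marker in heart, 1 cardiomyocyte and 1 hepatocyte marker in brain, and 2 hepatocyte markers in kidney. Intervals here and below cover counting error alone and treat each read as independent. Without molecular identifiers reads cannot be taken as independent molecules, so the intervals may be too narrow.

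COX1 and CYTB had at least 8322 counts in every library, while COX2, COX3, ATP6 and ATP8 had at most 284 in any. COX1 counts were 19101, 93381, 64706 and 46731 for brain, heart, kidney and liver in FFPE tissue, against 32162, 78210, 26882 and 19985 in frozen tissue. CYTB counts were 8322, 38281, 39655 and 25494 in FFPE tissue, against 23575, 54682, 26415 and 15789 in frozen tissue, in the same order of organs. Both far outnumbered the other 4 genes in each library. COX2 ran from 33 counts in frozen liver to 284 in frozen heart, and COX3 from 25 to 231 in the same libraries. ATP6 had between 36 counts in FFPE brain and 183 in FFPE heart. ATP8, the shortest of the genes, had 2 counts in FFPE brain, fewer than the 3 counts taken as the limit of detection, and 14 to 48 in the other 7 libraries.

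The gap remained after division by gene length. Levels in this paragraph are CPM, counted outside ribosomal RNA and divided by the length of the gene in kb. COX1 lay between 2593 in FFPE brain and 15799.9 in FFPE heart, and CYTB between 1526 in FFPE brain and 12127.5 in frozen heart. COX2 lay between 12.0 and 105, COX3 between 7.95 and 74.8, ATP6 between 10.8 and 70.2 and ATP8 between 2.06 and 53.5. No library of these 4 genes came near any library of COX1 or CYTB. Within a library COX1 was 116 to 268 times as high per kb as COX2, 172 to 406 times as high as COX3, 129 to 240.3 times as high as ATP6 and 178 to 1261 times as high as ATP8. COX2 and COX3, partners of COX1 in the same enzyme core, were much closer, with COX2 at 1.41 to 2.04 times COX3 per kb. ATP6, which overlaps COX3 by a base, stood at 0.782 to 1.83 times COX3 per kb.

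**Figure D1:**
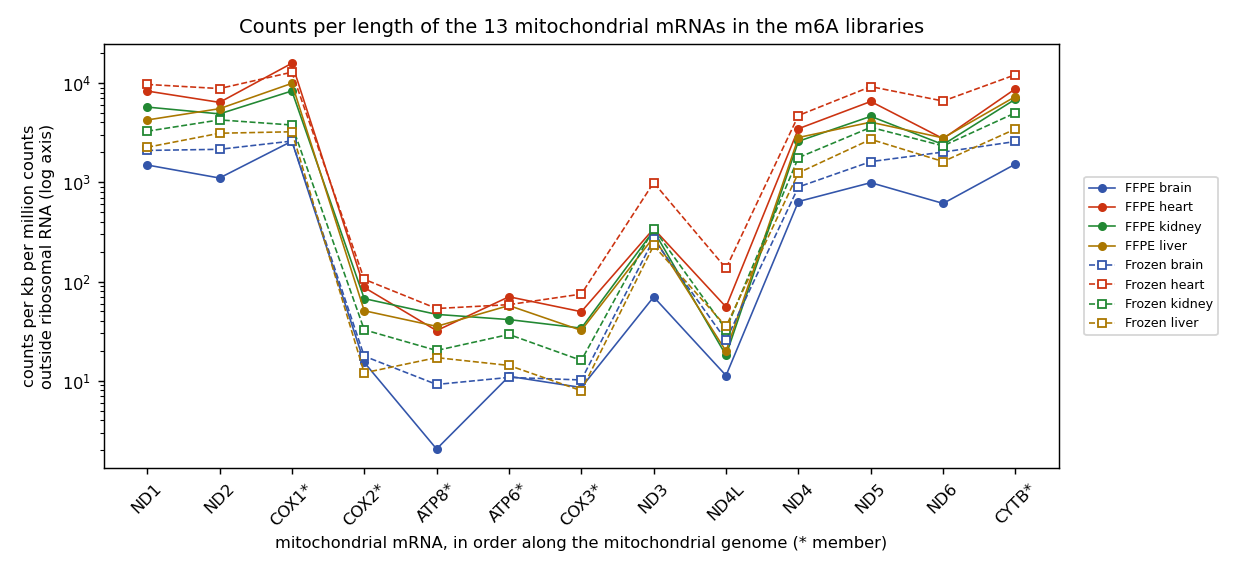
CPM outside ribosomal RNA, per kb of gene (log axis), for the 13 mitochondrial mRNAs in their order along the mitochondrial genome, 1 point per library, filled for FFPE and open for frozen tissue, lines joining a library. COX1 and CYTB lie at 1526 or higher in all 8 libraries, while COX2, ATP8, ATP6, COX3 and ND4L stay at 136 or lower and ND3 at 992 or lower.

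The low genes formed 1 uninterrupted stretch of the mitochondrial genome. On the mitochondrial chromosome (MT, GRCm38.p6 annotation) COX1 occupies positions 5328 to 6872, COX2 7013 to 7696, ATP8 7766 to 7969, ATP6 7927 to 8607, COX3 8607 to 9390 and CYTB 14145 to 15288. Each is a single protein-coding gene, ATP8 and ATP6 share 43 bases, and ATP6 and COX3 share 1. The complex I genes on either side were high, with ND1 at 1493 to 9670.0 and ND2 at 1103 to 8789 on the same scale before COX1. Past COX3, ND3 had 69.9 to 992 and ND4L 11.3 to 136, both inside the low stretch. The levels returned with ND4 at 639.6 to 4704, ND5 at 991 to 9196 and ND6 at 612 to 6578, ahead of CYTB.

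RefSeq lists 2 nuclear pseudogenes that match genes of this stretch in length. Gm10925, which carries mt-Atp6 as a synonym, lies on chromosome 1 (24613971 to 24614651, GRCm38.p6) and has 681 bases, the length of ATP6. Gm10222 lies on the same chromosome (24612404 to 24612700) and has 297 bases, the length of ND4L. From the start of Gm10222 to the end of Gm10925 there are 2248 bases, and from the start of ATP6 to the end of ND4L there are 2247. Neither pseudogene is a row of the table. The sources used here do not say how reads that fit both places were counted, and their part in the low counts of COX2, ATP8, ATP6, COX3, ND3 and ND4L was not tested. Levels of these genes are therefore uncertain. Most comparisons of them below are between libraries, and whether the uncertainty was alike in all libraries was not tested.

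The organ comparison asked where the 6 transcripts were most abundant in the pulled-down RNA. In brain all 6 genes were lower than in the other 3 organs, with log2 differences of -3.19 to -2.02, although COX1 turned in direction under quantile normalization. In heart all 6 were higher, by log2 1.56 to 2.14, and 5 of them were called, again with COX1 turning under quantile normalization. Levels from here on are log2 normalized counts as deposited, and a difference of an organ is its level minus the mean of the other 3, from a limma fit with terms for organ and preservation. A gene was called at a Benjamini-Hochberg adjusted p under 0.05 over 14864 genes. Each organ rests on its FFPE and its frozen library. The p-values therefore rest on how evenly FFPE and frozen tissue differed from organ to organ, and on the variance of other genes. Spread between animals within a group was not measured.

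COX1 stood at 9.80 and 9.88 in FFPE and frozen brain, against 12.97 and 12.56 in heart, 12.85 and 10.96 in liver, and 11.70 and 10.26 in kidney. Both brain libraries lay below the other 6. Its difference in brain was -2.05 ± 0.41 (SE; limma adjusted p = 0.0026). CYTB stood at 8.60 and 9.43 in FFPE and frozen brain, against 11.68 and 12.04 in heart, 11.97 and 10.62 in liver, and 10.99 and 10.24 in kidney, a difference of -2.24 ± 0.41 (limma adjusted p = 0.0016). The brain libraries were again the lowest, with frozen kidney next above them.

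COX2, which carries the copper site that takes electrons from cytochrome c, stood at 1.23 and 1.51 in FFPE and frozen brain. The other organs gave 4.30 and 4.45 in heart, 4.07 and 1.74 in liver, and 3.58 and 2.24 in kidney, so frozen liver came within log2 0.23 of frozen brain. The difference in brain was -2.02 ± 0.47 (limma adjusted p = 0.0057). COX3 had 0.60 and 0.91 in FFPE and frozen brain, against 3.68 and 4.16 in heart, 3.61 and 1.35 in liver, and 2.79 and 1.42 in kidney, a difference of -2.08 ± 0.51 (limma adjusted p = 0.0075). For both genes the libraries of brain did not overlap those of any other organ.

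ATP6, the subunit next to the rotating ring of the ATP synthase, stood at 0.76 and 0.80 in FFPE and frozen brain, the closest agreement between preservations of any of the 6 genes in any organ. The other organs gave 3.98 and 3.60 in heart, 4.24 and 1.98 in liver, and 2.87 and 2.08 in kidney. Its difference in brain was -2.34 ± 0.40 (limma adjusted p = 0.0012). ATP8 had -3.10 in FFPE brain, where it rests on 2 counts, and -1.14 in frozen brain. In the other organs it had 1.13 and 1.75 in heart, 1.83 and 0.53 in liver, and 1.31 and -0.17 in kidney, a difference of -3.19 ± 0.71 (limma adjusted p = 0.0049). The order of brain below all other libraries held for ATP8 too.

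Over all genes tested, 26.4% were called lower in brain, beside the 6 of 6 here. Brain lay below all 6 other libraries for 15.9% of the genes tested and for all 6 of these. Their median difference was log2 -2.16, against 0.07 over all genes tested. Scaling by total gene counts left 3 of the 6 called lower in brain (ATP6, ATP8 and CYTB), where 10.5% of all genes were. The medians were then -0.94 for the 6 genes and 1.29 for all genes. Quantile normalization left 4, without COX1 and CYTB, where 33.5% of all genes were called lower. Leaving out the FFPE brain library gave a median of -1.47 for the 6 genes. In bulk tissue, fewer cells of a type and less RNA per cell cannot be told apart.

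**Figure D2:**
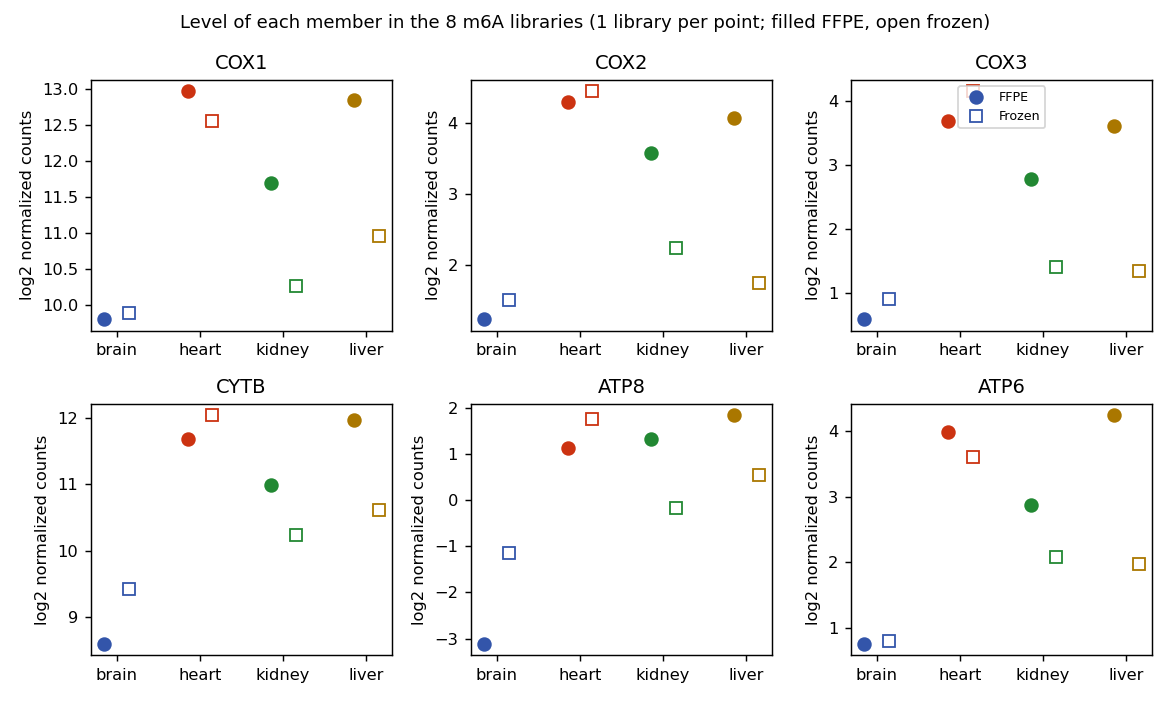
Level of each of the 6 genes (log2 normalized counts, a separate axis range in each panel) in brain, heart, kidney and liver, 1 library per point, FFPE filled and left of frozen, open. Both brain libraries are the lowest in each panel, a position that the brain means of COX1 under quantile normalization, and of COX2 and COX3 when scaled by total gene counts, do not keep, and FFPE lies above frozen for each gene in kidney and liver.

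The heart mean of COX1 was 12.76 ± 0.29 (SD, n = 2 libraries), against 11.90 ± 1.34 for liver, 10.98 ± 1.01 for kidney and 9.84 ± 0.06 for brain. The heart mean of CYTB was 11.86 ± 0.25, against 11.30 ± 0.96 for liver, 10.61 ± 0.53 for kidney and 9.01 ± 0.59 for brain. Both means were highest in heart (not under quantile normalization), but FFPE liver lay within the range of the heart libraries for each. COX2 averaged 4.38 ± 0.11 in heart and COX3 3.92 ± 0.34, and for both the 2 heart libraries lay above the other 6. That held for 11.3% of all genes tested. FFPE liver came close, at 4.07 against 4.30 in FFPE heart for COX2 and at 3.61 against 3.68 for COX3.

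The differences of heart from the other organs were 1.86 ± 0.41 for COX1 (limma adjusted p = 0.0081), 1.98 ± 0.47 for COX2 (0.012), 2.14 ± 0.51 for COX3 (0.012), 1.56 ± 0.41 for CYTB (0.018) and 1.67 ± 0.40 for ATP6 (0.013). ATP8 differed by 1.56 ± 0.71, with a limma adjusted p of 0.13. The 5 of 6 called higher compare with 15.9% of all genes tested. The median of the 6 was log2 1.76, against -0.15 over all genes. The frozen heart library carried more neuron marker RNA than FFPE heart. Its neuron markers had a median of log2 1.67, against -0.84 in FFPE heart, and summed to 133 CPM outside ribosomal RNA, against 53.1 in FFPE heart and 4834 in frozen brain. None of the 10 markers was at 0 in either heart library, and their part in the heart result was not tested. The 5 blood cell markers tested had a median difference of 2.42 in heart (2 called higher) and of -2.29 in brain (2 called lower), in the directions of the 6 genes, and their part was not tested either. The calls in heart depended on which library was left out. Without the frozen heart library the median of the 6 genes in heart was log2 1.34, and without the FFPE heart library 2.10. Scaling by total gene counts left COX1, COX2 and COX3 called (7.45% of all genes were called higher), and quantile normalization left COX2, COX3 and ATP6 (20.7%). A fit without a trend on the level left COX1, and the share of all genes it called was not taken.

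In kidney and liver no gene was called with the values as deposited. None of the 6 genes was called in kidney by limma, at adjusted or unadjusted p, with differences from -0.52 to 0.41, where 16.1% of all genes were called higher and 13.5% lower. None was called in liver either, with differences from 0.02 to 1.22, where 20.1% were called higher and 27.2% lower, and voom weights gave none in either organ. The signs in liver turned with the scaling. By total gene counts 5 of the 6 differences lay below 0 and 1 was called lower, where 58% of all genes were. By counts outside ribosomal RNA 4 lay below 0, and under quantile normalization 2. Without the frozen liver library the median of the 6 genes in liver was log2 1.46, and without the FFPE liver library -0.07.

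By mean deposited level the order was heart, liver, kidney and brain for 5 of the 6 genes, and heart, kidney, liver and brain for COX2, whose kidney and liver means were 2.91 and 2.90. The order of liver and kidney followed the scaling: liver was above kidney for 1 of the 6 genes (COX1) when scaled by counts outside ribosomal RNA and for none when scaled by total gene counts. Heart was highest for all 6 genes under each scaling but quantile normalization, where it was for 4. Neighbours in this order often did not differ beyond the spread. Of 36 comparisons between pairs of organs (6 genes in 6 pairs) limma called 16. Heart was above brain for 6 of 6 genes, where 19.1% of all genes tested were called higher, and liver above brain for 6 of 6, where 24.9% were. Kidney was above brain for 3 of 6, ATP6, ATP8 and CYTB (23% of all genes), and heart above kidney for COX1 alone (13.4%). Between heart and liver no gene was called (22% of all genes were called higher in heart and 19.5% lower), although COX2 and COX3 had an unadjusted p under 0.05. Between liver and kidney none was, at adjusted or unadjusted p (11.5% higher in liver and 17% lower). Heart exceeded brain by log2 2.85 to 3.56 and liver exceeded brain by 1.53 to 3.30. COX1 turned in 3 of its called pairs under quantile normalization, and COX2 and COX3 turned between liver and brain when scaled by total gene counts.

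The nuclear partners of these subunits were also mostly lower in brain and higher in heart with the values as deposited. All 9 listed nuclear genes of complex III, 15 of 17 of complex IV and 18 of 18 of complex V passed the filter on low values. Of those of complex III, 9 of 9 were called lower in brain, as were 12 of 15 of complex IV and 15 of 18 of complex V, with medians of log2 -1.40, -1.07 and -1.27, where 26.4% of all genes tested were called lower. In heart 9 of 9, 12 of 15 and 16 of 18 were called higher, with medians of 1.42, 1.27 and 1.54, where 15.9% of all genes were. The 12 of complex IV include Cox6a2 and Cox8b, which passed the filter only through the heart libraries. The 7 mitochondrial complex I genes were all called lower in brain (median -1.96) and all called higher in heart (1.62). Scaled by total gene counts, 3 of them were left in brain and 4 in heart, where 10.5% and 7.45% of all genes were so called. The 2 complex IV genes called lower in heart were Cox6a1 (-2.22 ± 0.23) and Cox8a (-1.92 ± 0.30), the forms of their subunits made outside muscle, which were named after their values were seen. Scaling by total gene counts left few of the brain calls, with 1 of 9 lower in complex III, 2 lower and 2 higher of 15 in complex IV, and none lower and 1 higher of 18 in complex V, where 10.5% of all genes were called lower and 55.4% higher. With the same scaling 4, 5 and 9 genes were called higher in heart, where 7.45% of all genes were.

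Among single nuclear genes, the named ones kept their direction in brain and heart under all 5 other scalings. In brain Uqcrq and Uqcrb, small subunits of complex III, differed by -2.11 ± 0.24 and -1.79 ± 0.20. The complex V genes Atp5g3 and Atp5g1, which encode the subunit of the rotating ring, differed by -1.79 ± 0.19 and -1.75 ± 0.28. In heart the muscle isoforms of complex IV stood furthest above the other organs. Cox6a2 had 6.21 in FFPE heart and 6.98 in frozen heart, against -3.13 to -0.20 in the other 6 libraries, and Cox8b had 5.46 and 6.11, against -4.33 to -0.74. Their fitted differences, 8.04 ± 0.53 and 8.44 ± 0.66, depend on the 0.5 added to each count, since the other libraries held few or no counts of either. Both genes passed the filter on low values only through the heart libraries, so their calls in heart are no separate support. The iron-sulfur subunit gene Uqcrfs1 rose by 1.72 ± 0.16 in heart, Atp5g1 by 2.32 ± 0.28 and Atp5o by 1.94 ± 0.22. Each of these 9 differences had a limma adjusted p under 0.05.

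Genes that help make or assemble the 6 subunits had mixed calls. Of 27 tested assembly factors of complexes III to V, 10 were called lower and 1 higher in brain (26.4% and 30.2% of all genes tested), and 7 were called higher and 1 lower in heart (15.9% and 18.1%). Of 28 tested genes of mitochondrial transcription and RNA maintenance, 13 were called lower in brain and 2 higher in heart. These counts followed the scaling: by total gene counts, 8 assembly factors were called higher in brain and none lower, and none was called higher in heart. Of the transcription and RNA maintenance genes, 7 were then called higher and 1 lower in brain. By the same scaling, calls over all tested genes came to 55.4% up and 10.5% down for brain, and to 7.45% up for heart. The upward calls in brain, 8 of 27 and 7 of 28, thus stayed under the share of all tested genes. Taco1, the translational activator of COX1, had 0.98 and 1.70 in FFPE and frozen brain and 2.37 to 3.37 in the other 6 libraries, a difference of -1.65 ± 0.25 (limma adjusted p = 5.6e-04). Ttc19, a complex III factor, was the assembly gene called higher in brain, by 1.71 ± 0.17. Coa6, which helps to place copper in complex IV, was the one called lower in heart (-1.13 ± 0.27) and was named after its value was seen. In heart, Cox10, which makes a precursor of the heme of COX1, rose by 1.46 ± 0.27 and Lrpprc, which stabilizes mitochondrial mRNAs, by 0.71 ± 0.16 (limma adjusted p = 0.0034 and 0.0091).

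**Figure D3:**
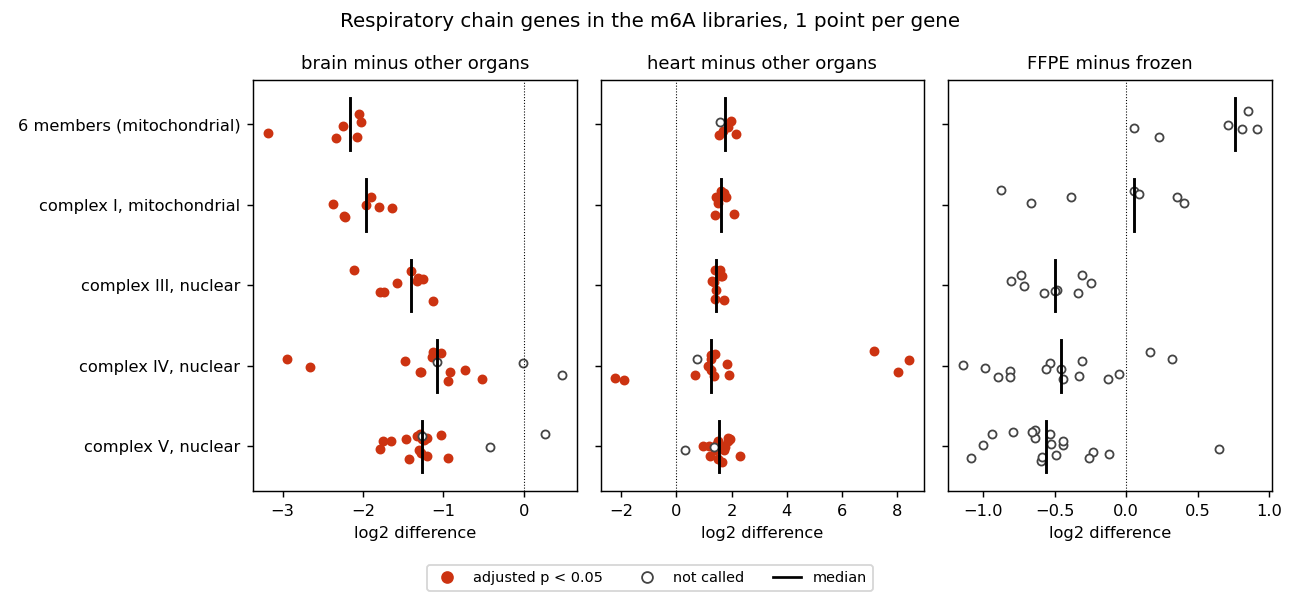
Log2 difference of each gene for brain minus the other organs, heart minus the other organs, and FFPE minus frozen, 1 point per gene, filled where the limma adjusted p was under 0.05, with the list's median as a bar and a separate axis range in each panel. With the values as deposited the mitochondrial and most nuclear genes lie below 0 in brain and above 0 in heart (COX1 turns in both under quantile normalization, and nuclear genes in brain when scaled by total gene counts), while for FFPE minus frozen the medians are 0.76 for the 6 genes and -0.56 to -0.45 for nuclear complexes III to V.

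The preservation comparison asked how FFPE tissue differs from frozen tissue of the same organs. Across the 4 organs none of the 6 genes was called, but within kidney and liver all 6 were higher in FFPE tissue, by up to log2 2.33. The fitted differences were 0.91 ± 0.35 for COX1 (limma unadjusted p = 0.030, adjusted p = 0.22), 0.85 ± 0.35 for ATP6 (unadjusted 0.039, adjusted 0.25), 0.81 ± 0.41 for COX2, 0.71 ± 0.44 for COX3, 0.23 ± 0.35 for CYTB and 0.05 ± 0.62 for ATP8. ATP8 turned to between -0.10 and -0.06 under 3 of the 5 other scalings. Leaving out 1 library gave 0.30 to 1.17 for COX2, 0.19 to 1.11 for COX3 and 0.38 to 1.14 for ATP6. The median of the 6 was 0.76, and 0.25 without either liver library. Of all 14864 genes limma called 1 higher (0.00673%) and none lower (0.209% and 1.2% when scaled by total gene counts), while 2769 had an unadjusted p under 0.05, as did 2 of the 6 here.

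That 1 gene was Xist, the RNA that silences an X chromosome in female cells. Its counts were 4050, 2693, 6685 and 4477 in FFPE tissue, against 5, 12, 26 and 5 in frozen tissue, each for brain, heart, kidney and liver. Differences between animals and preservation therefore cannot be told apart in any FFPE comparison here.

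In kidney COX1 was higher in FFPE than in frozen tissue by log2 1.43 (95% counting interval 1.41 to 1.46), COX2 by 1.34, COX3 by 1.37, CYTB by 0.75, ATP8 by 1.48 and ATP6 by 0.79. In liver the differences were 1.89 for COX1 (1.87 to 1.91), 2.33 for COX2, 2.27 for COX3, 1.36 for CYTB, 1.30 for ATP8 and 2.26 for ATP6. Each of these 12 intervals lay above 0, and all 6 genes stayed higher in both organs under each of the 5 other scalings. Among all genes tested 51.5% were higher in FFPE kidney and 49.6% in FFPE liver. The median difference of the 6 genes was 1.35 in kidney and 2.08 in liver, against 0.02 and -0.01 over all genes. There is no replicate within an organ, so these are values of pairs of libraries without a test.

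In brain and heart the directions were mixed or depended on the scaling. In brain all 6 differences were below 0 (44% of all genes tested were above), from -1.96 for ATP8 (counting interval -5.41 to -0.13) to -0.03 for ATP6 (-0.68 to 0.58). The sign in brain depended on the scaling, with 1 to 4 of the 6 above 0 under the other 5, whereas CYTB at -0.83 and ATP8 stayed below 0 under all. In heart COX1 was higher by 0.41 (0.40 to 0.43) and ATP6 by 0.38 (50.6% of all genes tested were above 0), while CYTB differed by -0.36 and COX3 by -0.47. A sign below 0 in brain and above 0 in kidney and liver was seen for 6 of 6 genes and for 12.5% of all genes tested. This pattern was picked from the values of the 6 genes and leaves out heart, so their count was set by that choice. Under the other scalings the pattern held for 2 to 5 of the 6, and for 0.74% to 9.76% of all genes. It was not particular to the 6, as 8 of the 9 other mitochondrial genes showed it too, all but ND4L (4 to 8 of 9 under the other scalings).

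The libraries also differed in the number of genes detected and in ribosomal RNA. FFPE libraries had a count for 17642, 15723, 17960 and 14378 genes, against 21358, 22227, 22708 and 20568 in frozen ones, for brain, heart, kidney and liver. Ribosomal RNA took 50.4%, 71.9%, 72.7% and 79.5% of the counts in FFPE tissue, against 62.8%, 79.7%, 65.6% and 73.1% in frozen tissue, so that it was lower in FFPE brain and heart and higher in FFPE kidney and liver. In brain, kidney and liver the ribosomal RNA share differed in the same direction as the 6 genes. It includes mt-Rnr1 and mt-Rnr2, from the same genome as the 6 genes. Of all counts, mt-Rnr2 took 8.01%, 20.5%, 15.3% and 11.3% in FFPE tissue, against 9.65%, 28.7%, 15.4% and 9.09% in frozen tissue. For mt-Rnr1 it was 4.04%, 7.66%, 8.25% and 6.58%, against 5.44%, 14.0%, 8.06% and 5.14%. Nuclear ribosomal RNA was not taken on its own. The part of detected genes or of ribosomal RNA was not tested.

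Blood cell markers also differed between preservations. Their summed level was 18.9, 695, 116 and 89.5 CPM outside ribosomal RNA in FFPE tissue, against 58.6, 78.9, 52.7 and 48.1 in frozen tissue, for brain, heart, kidney and liver. Of 9 markers measured, 3 to 4 were at 0 in each FFPE library, S100a8 and S100a9 among them each time, and 0 to 2 in the frozen ones. Like the 6 genes with the values as deposited, they were lower in FFPE brain and higher in FFPE kidney and liver. In heart the 5 markers tested had a median difference of log2 3.49, against -0.26 for the 6 genes. The part of blood cells in these differences was not tested.

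**Figure D4:**
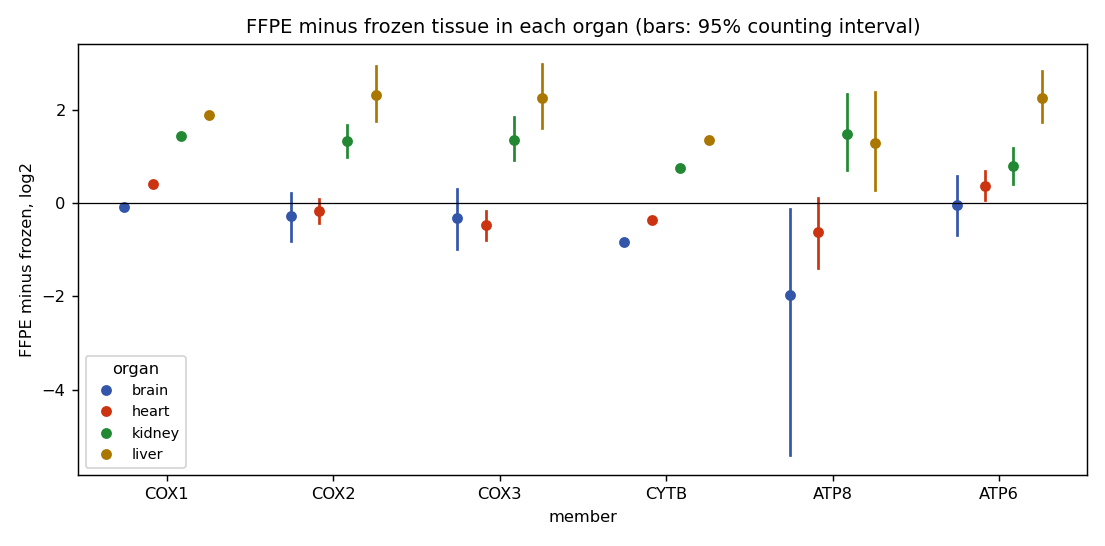
FFPE minus frozen difference (log2) of each of the 6 genes within brain, heart, kidney and liver, 1 point per pair of libraries, with 95% counting intervals as bars (shorter than the point for COX1 and CYTB). The kidney and liver points of all 6 genes lie above 0, at 0.75 to 2.33, and brain points at or below 0, of which 1 to 4 turn under other scalings.

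For the nuclear partners the medians lay below 0. For FFPE minus frozen none of the nuclear genes of complexes III, IV and V was called with the values as deposited. Under 4 of the 5 other scalings 1 to 3 of complex V were called lower, where 0.108% to 1.2% of all genes were. The deposited values gave medians of log2 -0.50, -0.45 and -0.56, and 9 of 9, 13 of 15 and 17 of 18 lay below 0. Uqcrq differed by -0.80 ± 0.21, Cox5b by -0.99 ± 0.22 and Atp5j2 by -1.09 ± 0.16 (limma adjusted p = 0.13, 0.10 and 0.057). In kidney the medians of complexes III, IV and V were -0.30, -0.18 and -0.27, and in liver -0.48, -0.43 and -0.41, where the 6 mitochondrial genes had 1.35 and 2.08. The medians were below 0 in brain too, at -1.20, -1.23 and -1.28. In heart they were -0.29, -0.11 and -0.29 and turned above 0 when scaled by total gene counts. The 7 mitochondrial complex I genes had a median of 0.05 for FFPE minus frozen, which turned to between -0.19 and -0.06 under 4 of the 5 other scalings. Within organs their medians were -1.04 in brain, -0.38 in heart, 0.50 in kidney (-0.13 by total gene counts) and 1.06 in liver.

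The makeup of the mitochondrial mRNA does not depend on the scaling of libraries, and here the 2 abundant genes parted. Shares in this paragraph are percentages of the counts of the 13 mitochondrial mRNAs. COX1 took 35.2% of them in FFPE brain, 36.2% in FFPE heart, 28.7% in FFPE kidney and 33.0% in FFPE liver, against 24.3%, 25.0%, 19.8% and 22.7% in the frozen organs. All 4 FFPE libraries lay above all 4 frozen ones, which was so for 1 of the 13 genes (7.69%). The log2 ratio of the shares, FFPE over frozen, was 0.54 in each organ, with counting intervals of 0.51 to 0.56 for brain, 0.52 to 0.55 for heart and for kidney, and 0.52 to 0.56 for liver. The share was thus 1.45-fold higher in FFPE tissue of each organ, with a spread between organs (SD 0.0018, n = 4) below the counting error. This evenness belongs to the 13 mRNAs as denominator. With the mitochondrial ribosomal RNAs included, the log2 ratios were 0.73, 1.33, 0.79 and 0.89 for brain, heart, kidney and liver, and among all gene counts 0.41, 0.76, 0.81 and 1.23.

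CYTB took 14.9% to 18.0% of the counts in FFPE libraries, against 17.5% to 19.5% in frozen ones, each lowest in heart. Its groups overlapped, and its mean log2 ratio was -0.15 ± 0.11 (SD, n = 4 organs). The shares add up to a whole, so a higher COX1 share by itself lowers those of CYTB and the other genes. How far CYTB differed beyond this was not tested. Per kb, COX1 stood at 1.21 to 1.81 times CYTB in FFPE libraries and at 0.754 to 1.06 times in frozen ones. The ratio of COX1 to CYTB was higher in FFPE tissue in 4 of 4 organs, by log2 0.68 ± 0.11 (SD, n = 4), with an exact two-sided sign-flip p of 0.125, the smallest that 4 organs allow. This pair was picked after its values were seen.

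The other 4 genes made up under 0.11% of the mitochondrial mRNA counts each. COX2 took 0.0750% to 0.103% in FFPE and 0.0376% to 0.0908% in frozen libraries, and ATP6 0.0630% to 0.0842% in FFPE and 0.0444% to 0.0678% in frozen ones. COX3 and ATP8 overlapped between preservations as well. Outside the 6 genes, ND3, ND4L and ND6 took a lower share in all FFPE libraries than in any frozen one (3 of 13 genes, 23.1%). ND6, encoded on the opposite strand from the rest, took 2.12% to 3.13% in FFPE libraries, against 3.83% to 6.32% in frozen ones. Whether counting used strand is not stated, and without it reads of ND6 and of the RNA opposite to it cannot be told apart.

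**Figure D5:**
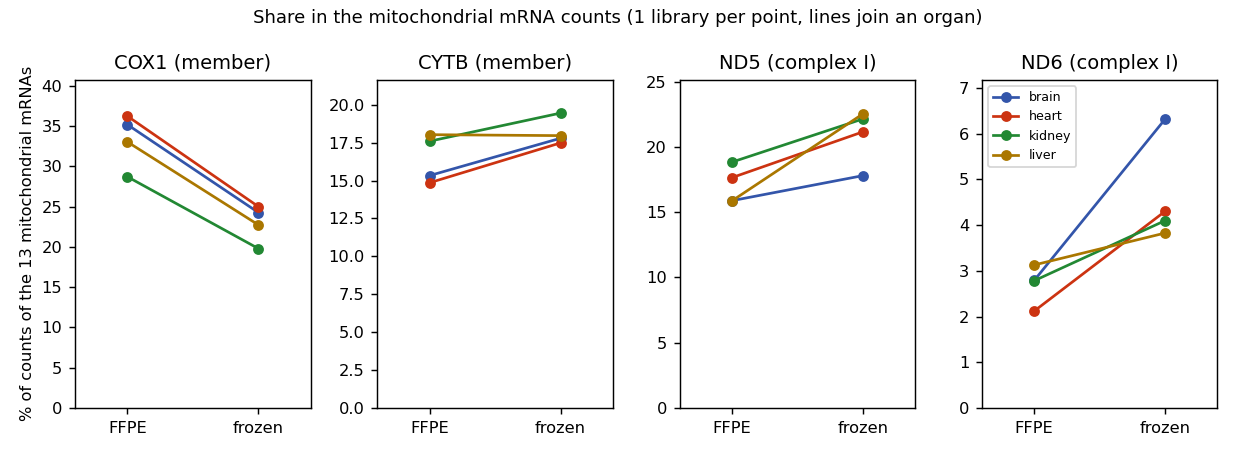
Share of COX1, CYTB, ND5 and ND6 in the counts of the 13 mitochondrial mRNAs (%), FFPE left and frozen right, 1 library per point, lines joining the libraries of an organ, each axis starting at 0. Among these counts COX1 is higher in FFPE tissue of all 4 organs by the same factor of 1.45, and ND6 is lower in all 4.

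The profiles of the 6 genes over the 8 libraries ran close together. Pearson's r between pairs of them was 0.852 to 0.992 with a median of 0.953 (15 pairs, 8 libraries). All share the libraries and their scaling, and within the low stretch ATP8 and ATP6 share bases. Among other mitochondrial genes, ND4 (0.992), ND1 (0.988), ND5 (0.970), the large ribosomal RNA mt-Rnr2 (0.965) and ND2 (0.965) were most like their mean profile. Of 4456 nuclear genes with a mean log2 of at least 3, the 5 most like it were Rack1 (0.955), Acacb (0.953), Trip11 (0.949), Itga9 (0.944) and Ubr2 (0.943), none of which encodes a subunit of complexes III to V.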

How the data were processed

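Libraries of RNA pulled down with an m6A antibody from FFPE and frozen mouse brain, heart, kidney and liver were analysed. The labels' protocols give 20 min of shearing and a total RNA library kit that depletes ribosomal RNA. HISAT2, featureCounts, limma and mm10 are named in the submitters' processing notes. Strand settings and the handling of reads with several matches are not given in the sources used here.

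The authors deposited log2 normalized counts for 27179 genes. From the values, each is the log2 of a CPM made from the count plus 0.5 and a scaled library size. Turned back, 100.0% of the values gave whole counts (tolerance 0.001, relative to 10000 for larger counts). The 8 column names give organ and preservation, and the table's name gives the m6A antibody. Another 8 columns, of a second table, fit none of the listed samples and were left out.

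Genes above log2 0 in at least 2 libraries (14864, all 6 members among them) were fitted with limma 3.58.1 in R 4.3.3, with terms for organ and preservation, 3 residual degrees of freedom and eBayes with a trend. The fit was tested on simulated data. Genes other than the 6 were named by rule: the 2 called genes with the largest difference per list and contrast (called or not for FFPE minus frozen), any mitochondrial gene, and the 5 most correlated nuclear and mitochondrial genes. Xist, the called gene, was named after its values were seen. The members and lists were chosen with earlier results of these data known. Counting intervals are exact for levels and normal on the log scale for shares. Coordinates are RefSeq's (GRCm38.p6). Other steps used pandas 2.3.3, numpy 2.4.6, matplotlib 3.10.9 and scipy 1.17.1 under Python 3.11.15.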

Additional observations from a re-analysis of the deposited data

Results flagged for a closer look

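The 4 organs of a preservation were checked for a library far from the rest, over levels and shares of the 6 genes, in 24 sets of 4 libraries, where chance alone would mark about 1 in 20. The level of COX3 in frozen heart (log2 4.16) stood far above the other frozen organs (0.91 to 1.42), and that of ATP8 in FFPE brain (log2 -3.10, from 2 counts) far below the other FFPE organs (1.13 to 1.83).

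For 4 genes FFPE minus frozen ran in opposite directions in different organs, with counting intervals that left out 0. COX1 differed by log2 -0.080 in brain, but by 0.41 in heart, 1.43 in kidney and 1.89 in liver. CYTB differed by -0.83 in brain and -0.36 in heart, and by 0.75 in kidney and 1.36 in liver. COX3 differed by -0.47 in heart, and by 1.37 in kidney and 2.27 in liver. ATP8 differed by -1.96 in brain, and by 1.48 in kidney and 1.30 in liver. Each organ and preservation is 1 library, so the differences between organs were not tested, and COX1 in brain turned to 0.41 when scaled by total gene counts and to 0.0045 when libraries were centred on their medians.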

How the results depend on the processing

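Each count of calls was recomputed under 20 other settings, where a setting could give it. No member was called for FFPE minus frozen or for kidney under any of them. Scaling by total gene counts left 3 members called in brain, 3 in heart and 10 among the organ pairs, and gave 1 call in liver, lower. Of all genes, this scaling called 10.5% lower in brain, 7.45% higher in heart and 58% lower in liver. It moved the median difference of all genes to log2 1.29 for brain, -0.69 for heart, 0.52 for kidney and -1.38 for liver. Quantile normalization left 3 calls in heart (20.7% of all genes were called higher there), and turned COX1 to 0.59 in brain and -0.033 in heart. It also turned COX1 to -0.47 for heart minus brain, -0.16 for heart minus kidney and -0.99 for liver minus brain. Without a trend, 1 call was left in heart and 10 among the pairs. Leaving out 1 library gave 2 to 6 calls in brain, 0 to 6 in heart, 0 to 2 in liver and 7 to 23 among the pairs, lowest without FFPE brain (2 in brain, 7 among the pairs) and without frozen heart (0 in heart). Without FFPE kidney 10 pairs were called, and without frozen liver 2 genes, higher in liver. For liver minus brain, total gene counts turned COX2 to -0.28 and COX3 to -0.09. For FFPE minus frozen, ATP8 turned to -0.060, -0.099 and -0.091 when scaled by total gene counts, by counts outside ribosomal RNA and by nuclear counts outside it. Leaving out 1 library gave ATP8 -0.43 to 0.72, at -0.43 without either kidney library and -0.36 without either liver library, and CYTB -0.14 to 0.58, lowest without either liver library. With ribosomal RNA or all genes in the denominator, the mean log2 ratio of the COX1 share was 0.93 or 0.80, and that of CYTB turned to 0.25 or 0.12. The cause was not tested. The scalings within organs, for organ means and for the nuclear lists, the other denominators by organ and the look at COX1 and CYTB shares, were chosen after seeing the data. So was the pattern of signs over brain, kidney and liver. No paired analysis was possible because the columns carry no replicate number to use as a block, while FFPE and frozen tissue of an organ are already paired by the organ term of the fit. ATP8 is limited by depth, with 2 to 48 counts.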
